A study of Mus musculus with 6 samples.

Results

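The 39 Hox genes of the mouse were examined in cartilage of the spheno-occipital synchondrosis, a growth cartilage of the cranial base. They were chosen by name, as every gene symbol made of Hox, a cluster letter from a to d and a paralog number, and all 39 stood among the 24346 gene symbols listed in each library. Laser microdissection took the cells out of frozen sections, from layers that the series text calls flat and round chondrocytes, and their total RNA was sequenced. There were 3 libraries with the title code FP and 3 with the code RR, numbered 11, 14 and 16 in both groups. No label spells out the codes, so they are kept as codes here. All 6 libraries came from mice of the genotype Gli1CreERT2; Tomato flox, in which a Cre recombinase driven by the Gli1 gene becomes active after tamoxifen and turns on a Tomato reporter, and all received tamoxifen at postnatal day 3. The labels give neither the age at collection nor the number of animals behind a library, so the spread between libraries may be technical.

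Hox genes code for homeodomain transcription factors that give the segments of the body their identity from the hindbrain to the tail. In mammals they lie in 4 clusters, in which genes at one end, with low paralog numbers, are switched on early and towards the head, and genes at the other end late and towards the tail. The skeleton of the face forms from neural crest that is free of Hox expression, while the back of the cranial base forms from occipital somites, next to the neck, where genes of paralog groups 3 and 4 act. In cells that do not use them, Hox clusters are held silent by polycomb complexes, and trithorax complexes keep them active.

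Hox transcripts were scarce in both groups. The mean level over the 6 libraries ran from 0.0932 FPKM (fragments per kilobase of transcript, scaled to the library) for Hoxb8 to 1.61 FPKM for Hoxb6, with a median of 0.462 FPKM over the 39 genes, against a median of 1.61 FPKM over all genes listed. A mean of at least 1 FPKM was reached by 5 Hox genes (Hoxa2, Hoxa7, Hoxb6, Hoxb7 and Hoxc6), or 12.8%, against 60.7% of all genes, and 0 Hox genes reached 5 FPKM. None of the 5 passed between FP and RR in a test across 14789 genes that called 143 genes, 0.967% of those tested. The tissue itself carried its label: Col2a1, the main cartilage collagen, stood between 38697 and 81873 FPKM in every library. In such bulk samples, fewer cells that express a gene and less RNA per cell cannot be told apart.

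On mm10, with genes placed by GENCODE M21, the 11 genes of HoxA lie on chromosome 6, the 10 of HoxB at chr11:96194316-96368256, the 9 of HoxC at chr15:102921103-103036852 and the 9 of HoxD at chr2:74668310-74765142. Promoter sequences were at hand in RefSeq (GRCm38.p6) for 22 of the 39 genes, as 24 windows that run from 250 bases before a transcript start to 50 after it. A pair from opposite ends of the clusters is shown because of the genes' values: Hoxa2, of paralog group 2, was above 0 in all 6 libraries, and Hoxd13, of paralog group 13, was 1 of 2 Hox genes whose FP and RR values did not overlap. Capitals mark CG dinucleotides, the sites of DNA methylation, which are dense in promoters that polycomb complexes occupy.
Hoxa2 promoter, chr6:52164782-52165081, minus strand: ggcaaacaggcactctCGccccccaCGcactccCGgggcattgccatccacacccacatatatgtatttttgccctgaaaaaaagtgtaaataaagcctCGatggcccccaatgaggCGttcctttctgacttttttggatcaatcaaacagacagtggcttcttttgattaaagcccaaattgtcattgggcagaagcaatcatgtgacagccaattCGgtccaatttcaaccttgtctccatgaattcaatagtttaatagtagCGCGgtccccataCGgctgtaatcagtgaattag
Hoxd13 promoter, chr2:74667975-74668274, plus strand: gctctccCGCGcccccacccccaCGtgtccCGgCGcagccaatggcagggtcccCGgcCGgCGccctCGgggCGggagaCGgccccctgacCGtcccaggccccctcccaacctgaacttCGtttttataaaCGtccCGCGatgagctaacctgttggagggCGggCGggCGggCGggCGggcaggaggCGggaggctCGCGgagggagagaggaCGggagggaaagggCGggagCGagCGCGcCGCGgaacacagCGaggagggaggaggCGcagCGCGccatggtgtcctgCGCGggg

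The Hoxa2 window holds 9 CG dinucleotides and the Hoxd13 window 37. Over the 24 Hox windows the median was 14.5, with a range of 4 to 45, against a median of 7 over all 32851 promoter windows of the table. The motif TGATNNAT, to which dimers of Hox and Pbx proteins bind, was searched on both strands. It was found in 4 Hox windows (16.7%), those of Hoxa2, Hoxb1 and Hoxb8 and 1 of the 2 of Hoxd11, against 8.85% of all windows, and such a match is only a run of letters and not a site known to be bound. Hoxb6, Hoxb7 and Hoxc6 had no window in the table.

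The clusters also carry microRNAs, short RNAs that silence transcripts, among them those of Hox genes. The 5p mature forms of the miR-10 and miR-196 genes fall into 2 groups by seed, bases 2 to 8, given in capitals, and are shown because their genes lie within the spans of the clusters measured here. Their 3p forms and miR-615 of HoxC are not printed.
miR-10a-5p (HoxB, chr11:96317186-96317208, plus strand): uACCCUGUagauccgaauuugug
miR-10b-5p (HoxD, chr2:74726074-74726096, plus strand): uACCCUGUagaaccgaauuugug
miR-196a-5p (HoxB, chr11:96265187-96265208, and HoxC, chr15:102973365-102973386, plus strand): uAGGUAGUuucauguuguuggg
miR-196b-5p (HoxA, chr6:52230129-52230150, minus strand): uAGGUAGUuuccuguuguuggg

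The genes of these microRNAs (Mir10a, Mir10b, Mir196a-1, Mir196a-2 and Mir196b) and Mir615 were listed at 0 FPKM in all 6 libraries, as were 1110 of all 1148 microRNA symbols listed (96.7%).

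Few sequenced fragments stood behind each Hox value. Low FPKM values fell on steps of 1 fragment, and on a transcript of 2000 bp that step was worth 0.129, 0.255 and 0.187 FPKM in FP 11, 14 and 16, and 0.196, 0.299 and 0.176 FPKM in RR 11, 14 and 16, so that RR 14 had the coarsest step. For 20 Hox genes an annotated transcript length gave whole fragments in every library, and for the other 19 the numbers are estimates. The median was 2 fragments per gene and library, 84.6% of the 234 values rested on 5 fragments or fewer (rounded), and 5 values on 11 or more. The highest was about 17.3 fragments, for Hoxd3 in RR 16. Summed over the 39 genes there were about 70.8, 80.04 and 137 fragments in FP 11, 14 and 16, and about 134, 106 and 106 in RR 11, 14 and 16. A value of 0 was listed 65 times (27.8% of the values, against 20.6% over all genes), namely for 12, 16 and 8 Hox genes in FP 11, 14 and 16 and for 9, 10 and 10 in RR 11, 14 and 16. A listed 0 can also be a failed estimate. Many of the genes with a 0 have the level of each library stated below, but not all. For Hoxb3, Hoxb4, Hoxc4, Hoxc5 and Hoxd4 only a highest level or an upper limit is stated. Some others, such as Hoxa10, Hoxc9, Hoxc13, Hoxd9, Hoxd10 and Hoxd11, have no level in the text.

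**Figure D1:**
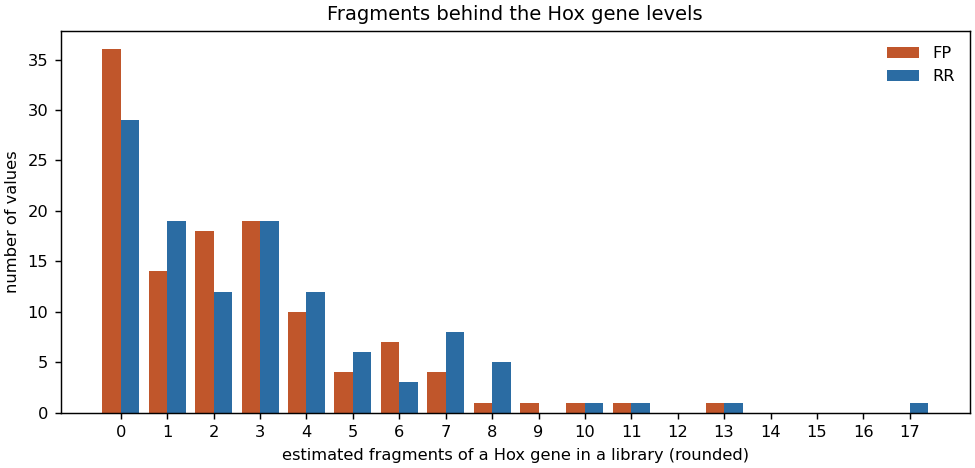
Number of Hox values (vertical axis, of 234) by the estimated number of sequenced fragments behind each (horizontal axis, rounded), for the 3 FP libraries and the 3 RR libraries (39 genes each). The values pile up at 0 to 4 fragments in both groups, and 1 value in RR reaches 17.

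The 5 Hox genes averaging 1 FPKM or more come from HoxA, HoxB and HoxC. Hoxa2, which shapes the skeleton of the second pharyngeal arch, had 1.17, 1.16 and 1.49 FPKM in FP 11, 14 and 16, and 0.892, 2.71 and 0.20 FPKM in RR 11, 14 and 16. The FP values lay close together, and all of them between RR 11 and RR 14. The counts behind them were 8, 4 and 7 fragments in FP and 4, 8 and 1 in RR. The log2 change, on the scale of log2(FPKM + 1), was 0.16 ± 0.48 (SE, n = 3 each; limma adjusted p = 0.961), and -0.22 without RR 16.

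Hoxb6, a gene of thoracic segments, had the highest mean of all Hox genes. Its levels were 0.617, 3.68 and 1.2 FPKM in FP 11, 14 and 16, and 2.19, 1.43 and 0.562 FPKM in RR 11, 14 and 16. FP 14 was the highest library with 9 fragments, FP 11 and RR 16 were low with 3 and 2, and the groups overlapped (log2 change 0.15 ± 0.49, limma adjusted p = 0.964). Its change was -0.28 without FP 14 and -0.13 without RR 16. Its neighbour Hoxb7 owed its mean to a single library: it was listed at 0 in FP 11 and FP 14 and at 4.08 FPKM in FP 16, the highest Hox value of all, and had 0.986, 0.50 and 0.885 FPKM in RR 11, 14 and 16. The change of Hoxb7 was -0.05 ± 0.68 (limma adjusted p = 0.995), and it took the other sign without FP 11 or FP 14 (0.34 each) or RR 11 (0.032).

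Hoxa7, another gene of thoracic segments, had 0.791, 1.05 and 0 FPKM in FP 11, 14 and 16, and 1.40, 3.05 and 0.360 FPKM in RR 11, 14 and 16. The 2 highest values were in RR, yet the groups overlapped, since RR 16 lay below FP 11 and FP 14 (log2 change -0.62 ± 0.54, limma adjusted p = 0.787). The change was -0.31 without FP 16 and -1.02 without RR 16. Hoxc6, likewise of thoracic segments, leaned the other way, with 0.663, 2.31 and 1.21 FPKM in FP 11, 14 and 16, and 0.252, 1.15 and 0.906 FPKM in RR 11, 14 and 16 (log2 change 0.41 ± 0.45, limma adjusted p = 0.839). Its FP 14 value was the highest, FP 11 fell below RR 14 and RR 16, and the change was 0.65 without FP 11 and 0.18 without RR 11. Of these 5 genes, 0 also passed at an unadjusted p of 0.05, against 10.3% of the 14789 genes tested. Misses of this kind do not show that the levels were equal, since the SE of each change was 0.45 or more on the log2 scale.

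**Figure D2:**
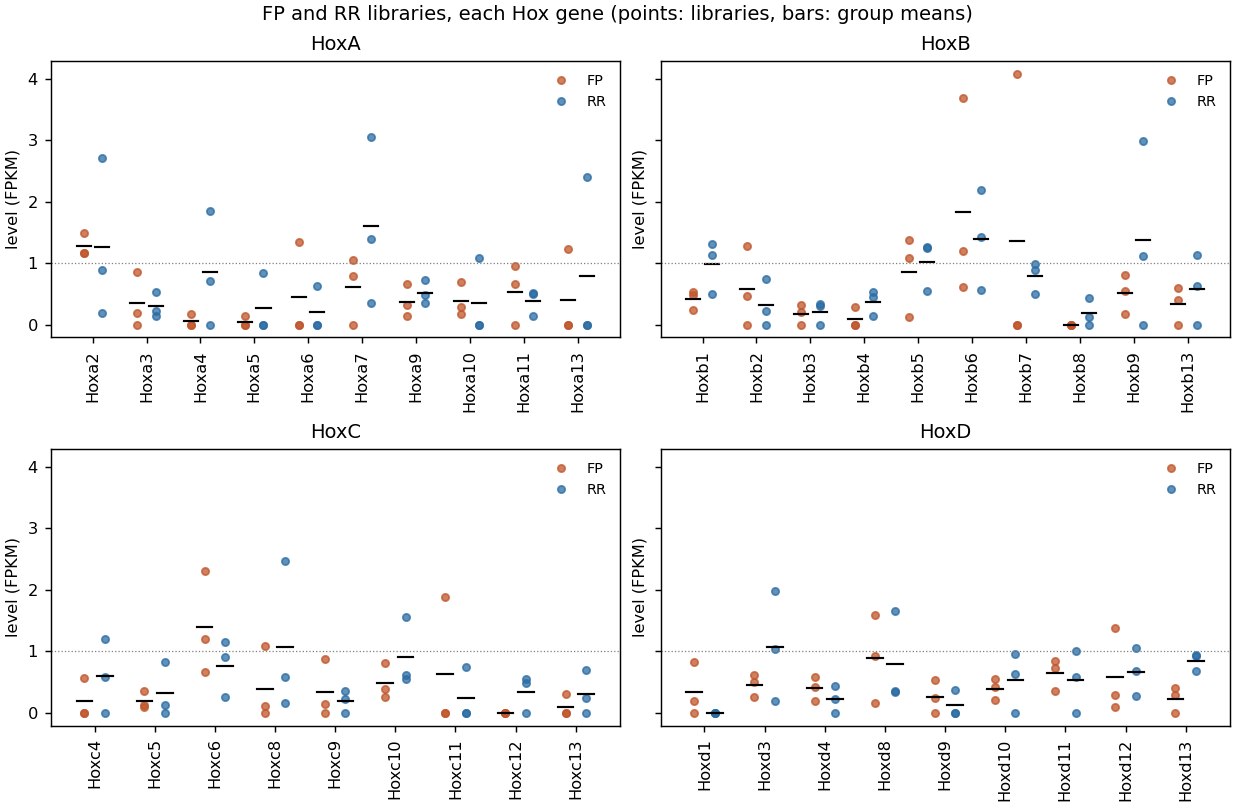
Level of 38 Hox genes in FPKM (vertical axis, linear) in the 3 FP libraries and the 3 RR libraries (points; short bars are group means), 1 panel for each cluster, genes in the order of their paralog numbers; the dotted line is 1 FPKM. Most points lie under 1 FPKM, single libraries of Hoxb6 and Hoxb7 reach 3.68 and 4.08 FPKM, and the groups overlap for all genes drawn but Hoxd13.

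The other 34 Hox genes had means under 1 FPKM and were left out of the test, the nearest to that limit being Hoxb5 at 0.944 and Hoxb9 at 0.943 FPKM. When all 22335 genes above 0 in any library were tested, 0 of the 39 Hox genes passed the adjusted threshold, and 1 had an unadjusted p under 0.05, or fewer than the 8.39% of all genes that did. Hoxd13, which patterns the digits and the hind end of the trunk, had groups that did not overlap and is singled out for that. Its levels were 0, 0.402 and 0.294 FPKM in FP 11, 14 and 16, and 0.922, 0.936 and 0.690 FPKM in RR 11, 14 and 16, from 0, 2 and 2 fragments in FP and 6, 4 and 5 in RR (log2 change -0.60 ± 0.28, limma adjusted p = 0.626).

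In all, 2 Hox genes had every RR value above every FP value, 5.13% of the 39. All RR values lay above all FP values for 7.11% of the 22335 genes, and for 7.75% of the 9840 genes whose mean lay within the range of the Hox means, so the share among Hox genes was near or under the background. The opposite order, with all FP values above all RR values, was found for 0 Hox genes, against 6.22% of the 22335 genes and 1.67% of the 9840 genes of similar level. In the test without a filter the estimate was lower in FP for 24 Hox genes and higher for 15, a share of 61.5% lower, against 67.2% of the genes of similar level. The median log2 change was -0.13 over the Hox genes, -0.17 over the genes of similar level and -0.05 over all genes tested.

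Among the genes of the first 3 paralog groups, which act nearest to the head, the median of the means was 0.579 FPKM over 8 genes. Hoxb1, which sets the identity of a hindbrain segment, had 0.246, 0.488 and 0.536 FPKM in FP 11, 14 and 16, and 1.31, 1.14 and 0.504 FPKM in RR 11, 14 and 16. Only RR 16 fell into the FP range. Hoxb2, active in the same hindbrain segment, was listed at 0 in FP 11 and RR 11 alike, with 1.28 and 0.470 FPKM in FP 14 and 16 and 0.748 and 0.221 FPKM in RR 14 and 16. Hoxd1 was the single Hox gene listed at 0 in all 3 RR libraries, against 0, 0.828 and 0.202 FPKM in FP 11, 14 and 16, the last 2 from 3 fragments and 1.

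Paralog groups 3 and 4, those of the neck and the occipital border, had means between 0.198 FPKM for Hoxb3 and 0.767 FPKM for Hoxd3. Hoxd3, whose loss in mice alters the vertebra below the skull, had 0.256, 0.509 and 0.621 FPKM in FP 11, 14 and 16, and 1.04, 0.198 and 1.98 FPKM in RR 11, 14 and 16. RR 14 lay below all FP values and RR 16 was the highest. Hoxa3, needed for the thymus and parathyroid glands, had 0.197, 0 and 0.859 FPKM in FP 11, 14 and 16, and 0.150, 0.228 and 0.538 FPKM in RR 11, 14 and 16, and overlapped fully. Hoxb3 did not exceed 0.343 FPKM in any library. In group 4, Hoxa4 reached 1.85 FPKM in RR 11 and Hoxc4 1.2 FPKM in RR 14, while Hoxb4 and Hoxd4 stayed at or under 0.583 FPKM. Hoxa4 was listed at 0 in FP 14, FP 16 and RR 14, with 0.174 FPKM in FP 11 and 0.712 FPKM in RR 16.

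Paralog groups 4 to 8, which pattern the neck and the thorax, held 15 genes with a median of 0.456 FPKM and 4 of the 5 genes at or above 1 FPKM. Hoxb5, a gene of the border between neck and thorax, came closest to joining them, with 0.136, 1.08 and 1.39 FPKM in FP 11, 14 and 16, and 1.24, 1.26 and 0.557 FPKM in RR 11, 14 and 16. Its low library was FP 11, with 1 fragment. Hoxd8 had 0.156, 0.931 and 1.59 FPKM in FP 11, 14 and 16, and 1.66, 0.362 and 0.341 FPKM in RR 11, 14 and 16, so that the highest library had the number 16 in FP and 11 in RR. Hoxc8, which shapes ribs and thoracic vertebrae, had 0.106, 0 and 1.08 FPKM in FP 11, 14 and 16, and 0.162, 2.46 and 0.581 FPKM in RR 11, 14 and 16.

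The same range held Hoxb8 and Hoxa5, the Hox genes with the 2 lowest means. Hoxb8 was listed at 0 in all 3 FP libraries and in RR 14, and had 0.431 and 0.129 FPKM in RR 11 and RR 16, from 3 fragments and 1. Hoxa5, which works in the lung and trachea, was above 0 only in FP 11, at 0.138 FPKM, and in RR 11, at 0.837 FPKM. Among the others, Hoxa6 was above 0 only in the libraries numbered 16, at 1.35 FPKM in FP and 0.633 FPKM in RR. Hoxc5 had at most 0.362 FPKM in FP and 0.832 FPKM in RR.

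Paralog groups 9 to 13, of the lumbar, sacral and tail regions and of the limbs, held 16 genes with a median of 0.463 FPKM, and none reached a mean of 1 FPKM. Hoxb9 came nearest, with 0.185, 0.550 and 0.805 FPKM in FP 11, 14 and 16, and 1.12, 2.99 and 0 FPKM in RR 11, 14 and 16. Its RR values spanned the FP range on both sides. Hoxc10, a gene of the lumbar region, was above 0 in every library, with 0.808, 0.268 and 0.392 FPKM in FP 11, 14 and 16, and 0.615, 1.56 and 0.552 FPKM in RR 11, 14 and 16. Hoxd12, of the distal limb, had 0.0989, 1.38 and 0.287 FPKM in FP 11, 14 and 16, and 1.05, 0.686 and 0.270 FPKM in RR 11, 14 and 16. Neither showed groups that parted.

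Several posterior genes were seen in a pair of libraries alone. Hoxa13, which patterns digits and the hind end, was above 0 only in the libraries numbered 14, at 1.24 FPKM in FP and 2.40 FPKM in RR, from 3 and 5 fragments. Hoxc11 was above 0 only in FP 16, at 1.88 FPKM, and RR 14, at 0.748 FPKM. Hoxc12 was listed at 0 in all FP libraries and RR 14, and had 0.547 and 0.491 FPKM in RR 11 and RR 16. Hoxa11, of the sacrum, the forearm and the lower leg, had 0, 0.659 and 0.964 FPKM in FP 11, 14 and 16, and 0.504, 0.512 and 0.151 FPKM in RR 11, 14 and 16. Hoxb13, a gene of the tail, had 0, 0.412 and 0.603 FPKM in FP 11, 14 and 16, and 0.631, 0 and 1.13 FPKM in RR 11, 14 and 16. In all, 10 Hox genes were above 0 in every library, and each of the 39 was above 0 in at least 2.

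**Figure D3:**
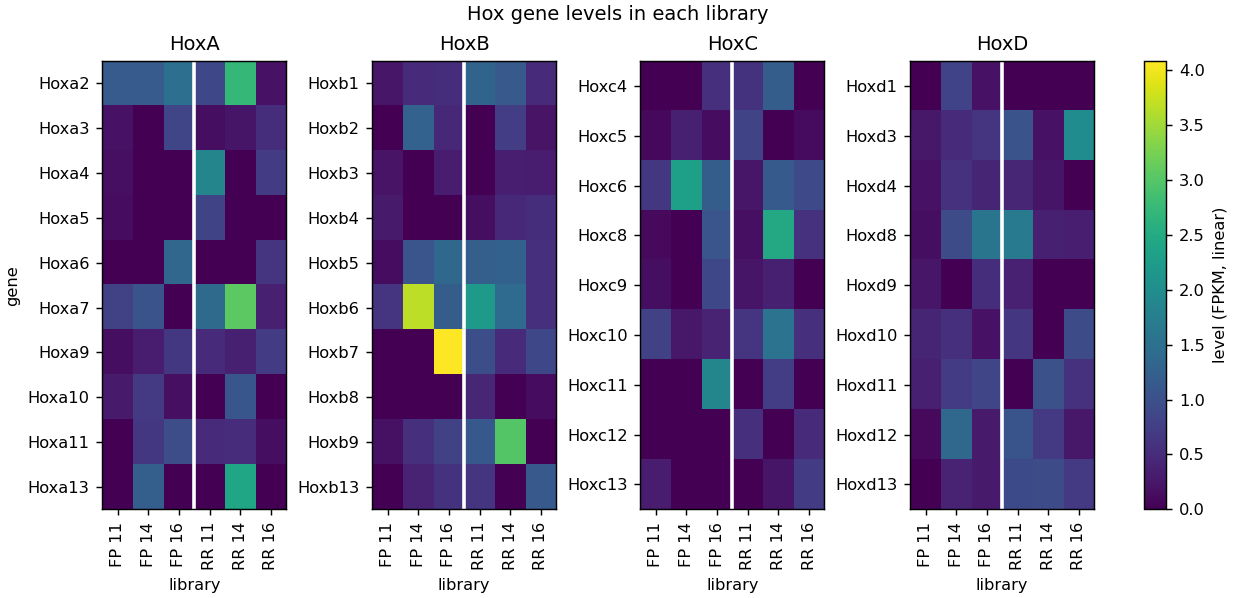
Level of 38 Hox genes (rows, by paralog number) in each library (columns; the white line parts FP on the left from RR on the right), 1 panel for each cluster, with colour for FPKM on a linear scale. Bright cells are single libraries, such as Hoxb7 in FP 16 and Hoxb6 in FP 14, and no block of neighbouring genes is bright in all libraries of a group.

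Summed over a cluster, the levels overlapped between the groups in all 4. HoxA summed to 3.32, 5.13 and 6.09 FPKM in FP 11, 14 and 16, and to 7.36, 11.5 and 4.57 FPKM in RR 11, 14 and 16. HoxB summed to 1.69, 7.5 and 9.40 FPKM in FP and to 8.06, 8.86 and 4.83 FPKM in RR, in the same order of libraries. For both, RR 16 was lower than FP 14 and FP 16. HoxC summed to 2.13, 2.94 and 6.14 FPKM in FP 11, 14 and 16, and to 3.23, 7.71 and 3.36 FPKM in RR 11, 14 and 16. HoxD, the cluster with no gene at 1 FPKM, summed to 1.73, 5.91 and 5.001 FPKM in FP and to 6.13, 3.42 and 4.82 FPKM in RR. FP 11 was the lowest library for every cluster, and the 39 genes together came to 8.88, 21.5 and 26.6 FPKM in FP 11, 14 and 16 and to 24.8, 31.5 and 17.6 FPKM in RR 11, 14 and 16.

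These levels were set beside gene families of the sense organs, which are not known to work in cartilage and were picked after the data had been seen. The 1102 olfactory receptor genes had a median of 0.795 FPKM (quartiles 0.370 and 1.42), above the 0.462 FPKM of the Hox genes, and 39.7% of them reached a mean of 1 FPKM. The 324 vomeronasal receptor genes had a median of 0.294 FPKM and the 35 bitter taste receptor genes one of 0.232 FPKM, with 11.4% at a mean of 1 FPKM in both families, near the 12.8% of the Hox genes. The Hox median thus lay between those of the receptor families. Transcript lengths were not matched between the families, and 1 fragment is worth more FPKM on a shorter transcript. Of the receptor genes tested, 0 of 438 olfactory, 0 of 37 vomeronasal and 0 of 4 bitter taste genes were called. In limma 44, 1 and 0 of them had an unadjusted p under 0.05, against 10.3% of the 14789 genes tested. The estimate was lower in FP for 68.0% of the olfactory receptor genes in the test without a filter.

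The average over the family also moved from library to library. The 39 Hox genes averaged 0.228, 0.551 and 0.683 FPKM in FP 11, 14 and 16, and 0.636, 0.808 and 0.451 FPKM in RR 11, 14 and 16. Olfactory receptor genes averaged 0.651, 0.805 and 0.987 FPKM in FP 11, 14 and 16, and 1.15, 1.88 and 0.713 FPKM in RR 11, 14 and 16. In both families FP 11 was the lowest library and RR 14 the highest. The part of this shared order in the Hox values was not tested.

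**Figure D4:**
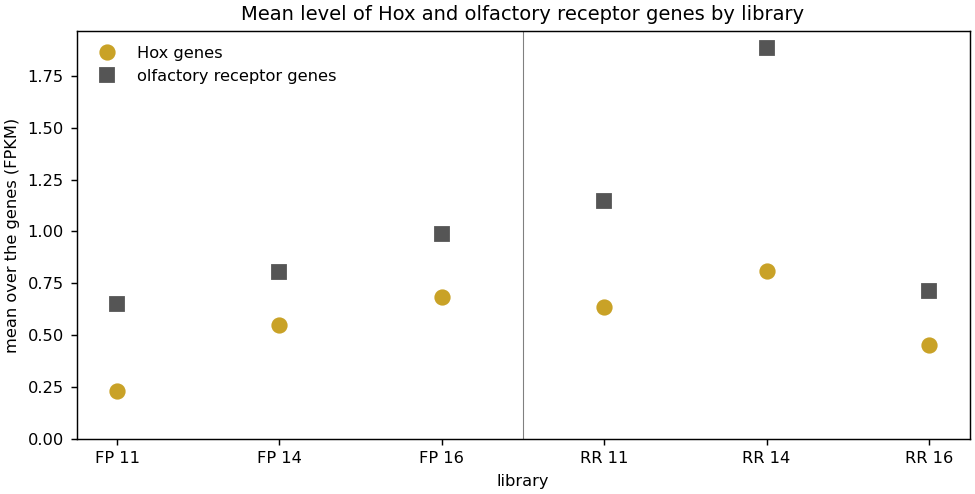
Mean level over the 39 Hox genes (circles) and over the 1102 olfactory receptor genes (squares) in FPKM (vertical axis, from 0) in each of the 3 FP and 3 RR libraries. The circles lie under the squares in all 6 libraries, and both are lowest in FP 11 (0.228 and 0.651 FPKM) and highest in RR 14 (0.808 and 1.88 FPKM).

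Genes that work with Hox proteins were better represented. The TALE homeodomain genes (Pbx, Meis, Pknox and Tgif), whose products bind DNA together with Hox proteins or resemble those that do, had a median of 4.01 FPKM over 11 genes, and 0 of the 10 tested were called. Pknox2, also named Prep2, had 4.55, 3.97 and 4.20 FPKM in FP 11, 14 and 16, and 7.54, 6.96 and 8.18 FPKM in RR 11, 14 and 16. The groups did not overlap, but the change of -0.71 ± 0.24 missed the threshold (limma adjusted p = 0.320). Pbx3 lay the other way, with 2.45, 4.51 and 2.90 FPKM in FP 11, 14 and 16, and 0.414, 1.26 and 1.74 FPKM in RR 11, 14 and 16 (log2 change 1.03 ± 0.37, limma adjusted p = 0.368). Meis1, the gene of a DNA-binding partner of both Hox and Pbx proteins, averaged 3.16 ± 1.24 FPKM in FP and 2.101 ± 0.435 FPKM in RR (SD, n = 3 each), with overlapping groups, and Meis3 averaged 3.66 ± 2.59 FPKM in FP and 6.40 ± 2.68 FPKM in RR.

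Retinoic acid switches on Hox genes from the head end of the clusters, through receptors that act as pairs of Rar and Rxr proteins. Of 22 listed genes of retinoid handling and of other Hox inducers, 13 were tested and 0 called, with a median of 1.39 FPKM. Rarg, the retinoic acid receptor gamma gene, was the most abundant, at 56.5 ± 6.92 FPKM in FP and 48.2 ± 9.21 FPKM in RR (SD, n = 3 each). Rara, of receptor alpha, had 1.497, 2.88 and 2.06 FPKM in FP 11, 14 and 16, and 6.34, 8.23 and 9.26 FPKM in RR 11, 14 and 16. All FP values lay below all RR values, and the change of -1.52 ± 0.29 stood just outside the threshold (limma adjusted p = 0.0558). It was inside in 4 of 20 other settings and at an adjusted p of up to 0.523 in the rest.

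Rxra, of a partner receptor, had 8.20, 14.4 and 11.4 FPKM in FP 11, 14 and 16, and 4.95, 5.16 and 5.35 FPKM in RR 11, 14 and 16 (log2 change 0.97 ± 0.27, limma adjusted p = 0.215). Its groups did not overlap, in the direction opposite to Rara. Aldh1a3, which makes retinoic acid, averaged 2.21 ± 0.307 FPKM in FP and 0.429 ± 0.199 FPKM in RR (log2 change 1.17 ± 0.37, limma adjusted p = 0.275), and Cyp26b1, which degrades it, averaged 4.33 ± 1.77 FPKM in FP and 2.31 ± 0.798 FPKM in RR (0.66 ± 0.36, adjusted p = 0.622). Cdx2, a caudal homeobox gene that acts on Hox clusters in the trunk, was at or under 0.345 FPKM in FP and 0.648 FPKM in RR, and Cdx4 was listed at 0, 0 and 0.241 FPKM in FP 11, 14 and 16 and at 0.252, 2.68 and 0.904 FPKM in RR 11, 14 and 16.

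Genes of the complexes that silence or maintain Hox clusters all had a mean over the 6 libraries above 1 FPKM, though not each library did. The 28 polycomb genes had a median of 7.71 FPKM and the 14 trithorax and demethylase genes a median of 15.1 FPKM, with 0 called in either list. Ezh2, the methyltransferase of polycomb complex 2, averaged 12.4 ± 2.30 FPKM in FP and 9.02 ± 3.71 FPKM in RR (SD, n = 3 each; log2 change 0.47 ± 0.33, limma adjusted p = 0.716), and its change was 0.21 without RR 14 and 0.74 without RR 11. Cbx7, which reads the methyl mark, had 0.685, 1.70 and 0.996 FPKM in FP 11, 14 and 16, and 1.82, 6.54 and 3.04 FPKM in RR 11, 14 and 16. The groups did not overlap, with FP lower, yet the change of -1.08 ± 0.42 did not pass (adjusted p = 0.415; -0.69 without RR 14). Rbbp7, a histone-binding subunit, leaned the other way, at 49.6 ± 2.40 FPKM in FP and 32.1 ± 8.40 FPKM in RR (0.64 ± 0.28, adjusted p = 0.478; 0.42 without RR 14). Of the maintaining side, Kmt2a, the trithorax methyltransferase, was at 16.2 ± 2.79 FPKM in FP and 15.95 ± 1.64 FPKM in RR, and Ctcf, whose protein marks borders inside the clusters, at 15.1 ± 2.05 FPKM in FP and 12.3 ± 2.81 FPKM in RR. Of the shared subunits of the trithorax methyltransferases, Wdr5 averaged 6.18 ± 0.971 FPKM in FP and 4.92 ± 1.44 FPKM in RR, Ash2l 5.99 ± 0.951 FPKM in FP and 7.21 ± 0.932 FPKM in RR, and Rbbp5 6.48 ± 0.929 FPKM in FP and 5.42 ± 0.531 FPKM in RR.

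**Figure D5:**
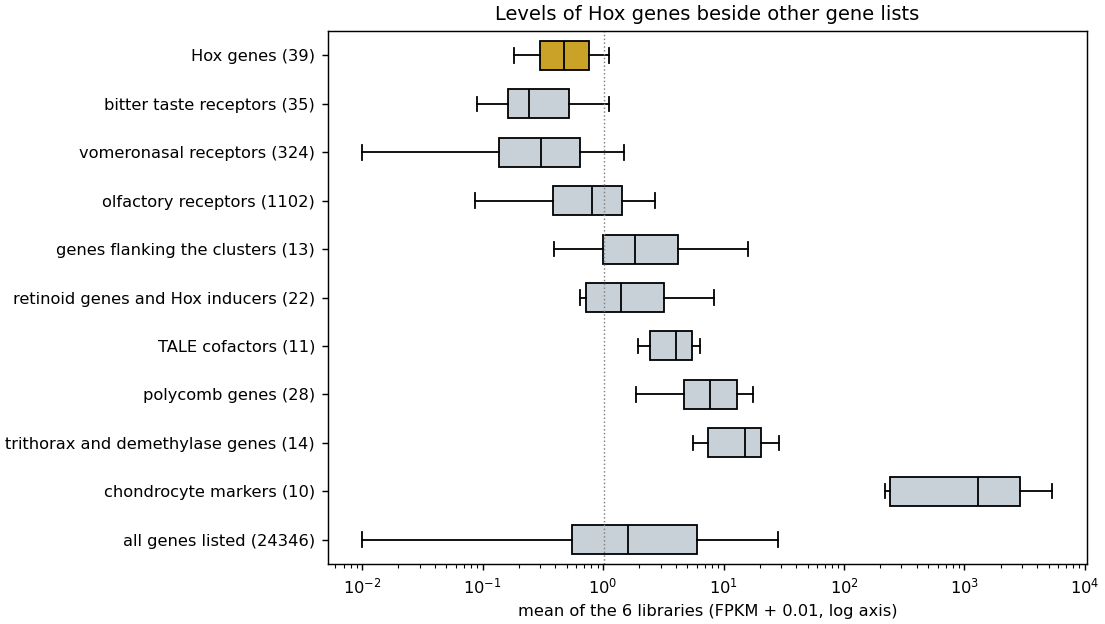
Mean level of each gene over the 6 libraries, in FPKM plus 0.01 on a log axis, for the 39 Hox genes, for 9 other lists and for all 24346 genes listed (number of genes in brackets; box: quartiles, line: median, whiskers: percentiles 5 and 95; dotted line: 1 FPKM). The Hox box, with a median of 0.462 FPKM, lies beside those of the receptor families and left of those of the TALE, polycomb and trithorax genes, with medians of 4.01, 7.71 and 15.1 FPKM.

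Genes flanking the clusters, some of them farther off than the cluster is long, were mostly above the Hox genes. Of 13 listed flanking genes, 9 were tested and 0 called, with a median of 1.82 FPKM. Beside HoxC, Atp5g2, of an ATP synthase subunit, averaged 41.6 ± 6.76 FPKM in FP and 28.5 ± 6.39 FPKM in RR (SD, n = 3 each), Calcoco1, of a coiled-coil coactivator, 12.003 ± 1.25 FPKM in FP and 20.0 ± 7.06 FPKM in RR, and Cbx5, of heterochromatin protein 1 alpha, 8.43 ± 3.001 FPKM in FP and 11.3 ± 3.07 FPKM in RR. Beside HoxA, Hibadh averaged 4.13 ± 0.961 FPKM in FP and 4.23 ± 0.696 FPKM in RR, Snx10 2.47 ± 0.847 FPKM in FP and 2.87 ± 1.17 FPKM in RR, and Skap2 1.27 ± 0.331 FPKM in FP and 2.38 ± 3.23 FPKM in RR. Beside HoxD, Mtx2 averaged 2.63 ± 0.958 FPKM in FP and 4.25 ± 2.45 FPKM in RR and Lnp 1.47 ± 0.580 FPKM in FP and 1.45 ± 0.689 FPKM in RR, and beside HoxB Ttll6 averaged 0.817 ± 0.386 FPKM in FP and 1.37 ± 0.661 FPKM in RR. Evx1 and Evx2, homeobox genes at the posterior ends of HoxA and HoxD, were as faint as their Hox neighbours, with means of 0.771 and 0.231 FPKM over the 6 libraries.

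Noncoding genes in or beside the clusters had a median of 0.183 FPKM over 17 listed genes, of which 8 were listed at 0 in all libraries. The microRNA genes named above are among these 8 and pull the median down. It therefore does not show that the other noncoding genes were fainter than the Hox genes. Halr1, which lies outside HoxA at chr6:52102949-52113684, was the only one of the 17 to reach a mean of 1 FPKM. It owed that mean to 9.46 FPKM in FP 16, against 0 in FP 11 and FP 14. In RR 11, 14 and 16 it had 0.990, 0 and 0 FPKM. Hotair, transcribed from HoxC, had 0.114, 0 and 0.664 FPKM in FP 11, 14 and 16, and 0.868, 1.58 and 2.03 FPKM in RR 11, 14 and 16. Hottip, just past the posterior end of HoxA, had 0.437, 0 and 0.158 FPKM in FP 11, 14 and 16, and 0.826, 1.26 and 1.63 FPKM in RR 11, 14 and 16. For both, singled out after their values were seen, every RR value lay above every FP value, as for 7.11% of all genes, and neither passed in the test without a filter (limma adjusted p = 0.448 and 0.426).

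Some Hox exons are shared with other transcripts in the annotation, and the sources used here do not say whether the authors' counting used the strand. Hoxb3 shares 63.9% and Hoxb2 58.5% of its exon bases with Hoxb3os on the opposite strand, Hoxa11 24.8% with Hoxa11os and Hoxa7 23.3% with Hoxaas3. On the same strand, Hoxd3 shares 68.6% and Hoxd4 45.1% with the transcript gene Gm28230, Hoxd11 23.9% with Gm28309 and Hoxa2 15.0% with Gm28308. Values of these genes may hold, or lack, reads of the partner.

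Markers of other tissues were present in both groups. The summed level of 14 neural and pituitary markers was 51.6, 1427 and 392 FPKM in FP 11, 14 and 16 and 51.2, 1201 and 400.3 FPKM in RR 11, 14 and 16, so it went with the library number. Skeletal muscle markers, 16 in all, summed to between 464 and 591 FPKM in FP and between 273 and 818 FPKM in RR, mostly from Tnni2, a troponin gene with 277, 314 and 330 FPKM in FP 11, 14 and 16 and 448, 236 and 769 FPKM in RR 11, 14 and 16. Most of the others leaned towards FP: the median log2 change was 1.38 over the 14 tested, and 0 were called. In limma 6 had an unadjusted p under 0.05, against 10.3% of the 14789 genes tested. For 3 (Myh4, Actn3 and Casq1) every FP value lay above every RR value, as for 6.22% of the 22335 genes. As a list, RR 11 did not share the lean. The median level over the 16 markers was 4.54, 4.98 and 11.3 FPKM in FP 11, 14 and 16, and 4.83, 1.28 and 0.585 FPKM in RR 11, 14 and 16. The summed level of 13 blood and immune markers was between 104 and 210.4 FPKM in FP and between 71.0 and 304 FPKM in RR. The 10 osteoblast markers summed to between 421 and 1101 FPKM in FP and between 286 and 1721 FPKM in RR. Among them, Col1a1 overlapped between the groups, with 596, 453 and 130 FPKM in FP 11, 14 and 16. In RR 11, 14 and 16 it had 1077, 185 and 107 FPKM. Of the 153 tested genes on the cofactor, inducer, chromatin, noncoding, flanking and marker lists, 1 was called: Sp7, the osterix gene of osteoblasts and hypertrophic chondrocytes, with 29.3, 40.7 and 36.9 FPKM in FP 11, 14 and 16 and 5.56, 3.08 and 4.23 FPKM in RR 11, 14 and 16 (log2 change 2.81 ± 0.28, limma adjusted p = 0.00418). The part of these cells in the Hox values was not tested. Without RR 14, 3 Hox genes reached a mean of 1 FPKM and 0 were called, of 63 genes called in all.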

How the data were processed

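RNA-seq was analysed in 6 libraries, 3 FP and 3 RR. The authors deposited an FPKM value for each gene symbol and library, per the file headers. The submitters' processing notes name mm10 as the genome build, Cuffdiff 2.2.1, TopHat2 2.1.1, SAMtools 0.1.18 and Bowtie2 2.2.8. Libraries were made with a SMARTer stranded total RNA kit for low inputs, per the labels' protocols. Not given in the sources used here are the annotation, whether libraries were scaled to each other and whether strand was used.

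FPKM is scaled by transcript length, so levels were compared between genes. The test, two-sided and for FP minus RR, was that of limma 3.58.1 (R 4.3.3; eBayes, variance trend with intensity) on log2(FPKM + 1), over the 14789 genes that averaged 1 FPKM or more. A gene was called at a Benjamini-Hochberg adjusted p under 0.05 over all genes tested. This scale understates the change of low genes. The fit was tested on simulated data, where it called 29%, 99% and 100% of genes given a log2 change of 1, 2 and 3. Those genes were all drawn from levels above every Hox mean, so the simulation does not tell what it would find among Hox genes.

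Estimated fragments are FPKM times transcript length less 200 bp, divided by a step found per library from 3524 genes to which GENCODE M21 basic gives only 1 transcript, 1500 to 3000 bp long. There, 75.4% to 80.4% of low values were whole within 0.1 fragments, against 20% by chance. They are descriptions only, and total depth is unknown.

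By rule, Hox genes averaging 1 FPKM or more were given in every library, and of other lists called genes and up to 4 more with the smallest p were named, some by group means only. Flanking and noncoding genes were named at a mean of at least 1 FPKM. Other genes were picked after their values were seen. The Hox genes and all lists were chosen with earlier results of these data known, and the receptor families, the genes of similar level and the fragment estimates after seeing the data. GENCODE M21 held 23310 of the symbols and all 39 Hox genes. One by one, 38 of them are drawn in the figures, not all of them with values in the text, and all tests, sums and counts include the full 39. Sequences are from RefSeq tables (GRCm38.p6).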

Additional observations from a re-analysis of the deposited data

How the results depend on the processing

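Under all 20 alternatives 0 Hox genes were called. The number of genes called, 143, was 83 without an intensity trend, 42 to 85 without 1 library (42 without FP 16, 61 without FP 14, 63 without RR 14, 74 without RR 16, 78 without RR 11, 85 without FP 11) and 8 to 42 without both libraries of a number. With the library number as a block it was 271 as a fixed and 412 as a random effect, with a smallest Hox adjusted p of 0.56 and 0.518. Same-numbered libraries deviated together at r = 0.319, 0.185 and 0.089 for 11, 14 and 16. The last is under the 0.1 asked of every pair, so the numbers are not taken as pairs, although each library correlated best with its own number. Titles of same-numbered libraries also share their whole prefix before the code, but no label says what it marks. If it marks an animal, the main test leaves out a pairing that the block settings include. The split of calls, 82 higher and 61 lower, was 66 and 65 after quantile normalization and 56 and 18 without RR 16. Called genes on the other lists, 1, were 2 with a pseudocount of 0.1 or 0.5 or after rescaling by median ratios, 3 with library weights or a filter at 5 FPKM, 5 with either block and 0 to 5 with libraries left out. The Sp7 call ended without both libraries numbered 14 (adjusted p = 0.0631) or 16 (0.142). Rara passed with the block (0.0345 fixed, 0.0104 random), rescaling (0.0457) and weights (0.0448). The Hoxb7 change was 0.075 after quantile normalization, 0.41 with weights, -0.17 to 0.34 without 1 library, 0.42 without both numbered 11 and 0.22 without both numbered 14. Without FP 16, or without both numbered 16, Hoxb7 fell under the filter and was not tested. With a pseudocount of 0.1 the changes of Hoxa2, Hoxa7, Hoxb6, Hoxb7 and Hoxc6 were 0.54, -1.47, 0.20, -1.31 and 0.81. Hoxa2 ran from -0.22 to 0.19 without 1 library and was -0.29 without both numbered 16. Hoxb6 ran from -0.28 to 0.48 without 1 library and was -0.24 without both numbered 14 and -0.017 without both numbered 16. Mtx2 was 0.095 without both numbered 16. The cause was not tested. Means of at least 0.2, 0.5 and 5 FPKM were reached by 33, 17 and 0 Hox genes, so the filter at 5 FPKM gave no Hox value. Cluster sums moved by less than 1 SD after rescaling or without the highest gene. Most Hox values rest on a few fragments.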
